A study of Mus musculus with 10 samples.

Results

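Beta tubulins were followed across whole hippocampi of 10 mice through every probe set whose only gene symbol on the array platform was Tubb2a, Tubb2b, Tubb3, Tubb4a, Tubb4b, Tubb5 or Tubb6. These 7 genes were measured by 15 of the 45037 probe sets apart from controls, and all 15 entered the fit because no filter on low values was used. The mice were adult SJL/J females. The TPlp+AxL group (5 mice) received T cells specific for proteolipid protein, a major protein of myelin, by adoptive transfer and then an axonal lesion, and the AxL group (5 mice) had the axonal lesion alone. Both groups were sampled at 2 days after the lesion, so both carry the lesion. Values of mice without a lesion or with T cells of another specificity are not analysed here. Each array is 1 mouse, and the values are log2 expression made by RMA, a method that reduces the probes of a probe set to 1 background-corrected and normalised number. The family was chosen by gene name, but with the log2 differences between these 2 groups already known, so those differences count as values that chose the members. They are therefore given as a description. Where a member passed the threshold of the fit across the whole table this is stated as a count, and it is not evidence about the family.

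Microtubules are built from dimers of alpha and beta tubulin, and the mouse genome encodes several beta isotypes that differ mainly in their acidic C-terminal tails, where motors, other partners and modifying enzymes act. Tubb3 is the neuronal isotype, made early in neuronal life and used widely as a neuronal marker. Tubb2a and Tubb2b are abundant in brain, and Tubb2b is needed for neuronal migration in the developing cortex. Tubb4a is enriched in brain, in neurons and myelinating oligodendrocytes, and mutations of human TUBB4A cause a hypomyelinating leukodystrophy and a dystonia. Tubb4b and Tubb5 are broadly expressed isotypes, and Tubb6 is a low-abundance isotype of many non-neuronal tissues. Cells also destabilise tubulin mRNAs when free tubulin dimers accumulate, a feedback that acts on tubulin transcripts as a class.

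The promoter windows of Tubb4a, Tubb4b and Tubb5 are shown because Tubb4a was the isotype whose groups stood apart, and Tubb4b and Tubb5 were the pair whose levels moved together most closely from mouse to mouse. RefSeq windows of 300 bases, 250 before and 50 after the annotated gene start, were found for 5 of the 7 genes, and Tubb2b and Tubb6 had none in the table used. Each window is written 5′ to 3′ in the direction of the gene, and capitals mark matches on either strand to any of 5 motifs. The CCAAT box was searched as CCAAT and the GC box as GGGCGG. The TATA box was searched as TATAAA and the core of the cAMP response element (CRE core) as TGACG. The E-box was searched as CACGTG.
Tubb4a, GRCm38.p6 chr17:57087551-57087850, minus strand: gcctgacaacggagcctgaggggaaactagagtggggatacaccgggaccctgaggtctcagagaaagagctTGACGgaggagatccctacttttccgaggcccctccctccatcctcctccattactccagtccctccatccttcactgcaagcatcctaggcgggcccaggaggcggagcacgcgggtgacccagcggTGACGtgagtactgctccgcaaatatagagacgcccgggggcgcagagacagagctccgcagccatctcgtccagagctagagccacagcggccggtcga
Tubb4b, GRCm38.p6 chr2:25224653-25224952, minus strand: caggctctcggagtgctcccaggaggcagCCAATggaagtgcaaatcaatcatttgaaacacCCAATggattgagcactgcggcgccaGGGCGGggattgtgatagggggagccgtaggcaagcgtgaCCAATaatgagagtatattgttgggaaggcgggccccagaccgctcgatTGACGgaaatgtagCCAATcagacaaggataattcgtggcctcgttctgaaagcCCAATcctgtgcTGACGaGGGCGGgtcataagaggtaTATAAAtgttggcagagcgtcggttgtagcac
Tubb5, GRCm38.p6 chr17:35838252-35838551, minus strand: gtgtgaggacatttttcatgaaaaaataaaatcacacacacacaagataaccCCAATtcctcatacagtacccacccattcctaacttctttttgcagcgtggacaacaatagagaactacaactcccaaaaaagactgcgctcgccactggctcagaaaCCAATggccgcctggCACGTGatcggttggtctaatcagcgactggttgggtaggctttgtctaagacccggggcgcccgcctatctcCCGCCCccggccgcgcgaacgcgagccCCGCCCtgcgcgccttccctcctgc

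The Tubb4a window held 2 CRE cores and 0 matches to the other motifs. The Tubb4b window held 5 CCAAT boxes, 2 GC boxes, 1 TATA box and 2 CRE cores. Its TATA box match begins at base 269 of the window, after the annotated gene start. The Tubb5 window held 2 CCAAT boxes, 2 GC boxes and 1 E-box. Of the windows not printed, Tubb2a had 2 GC boxes, 1 TATA box and 2 overlapping CRE cores on opposite strands, and Tubb3 had 1 CCAAT box and 2 GC boxes. Among all 32851 windows of this length, 37.4% held a CCAAT box, 35.7% a GC box, 13.6% a TATA box, 20.8% a CRE core and 7.15% an E-box by the same letters. These are matches of letters and say nothing about which factors bind there. Tubb2a and Tubb2b lie close together on 1 chromosome in the same annotation, with 0 protein-coding genes between them.

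Of the 7 isotypes, Tubb4a was lower in the mice that had received T cells, and it was the member whose groups did not overlap. Tubb6 was the member with the largest difference in the other direction, and Tubb2b was also higher on average. The 95% intervals of the differences of Tubb2a, Tubb2b, Tubb3, Tubb4b and Tubb5 included 0. Over the 15 probe sets the median log2 change, TPlp+AxL minus AxL, was 0.01, with 8 positive and 7 negative, beside a median of -0.0034 over all 45037. A probe set is called here where limma's p, adjusted by Benjamini-Hochberg across the whole table, is under 0.05. Of the 15, 1 was called lower, that of Tubb4a, and 0 higher, beside 0.835% of the whole table called in either direction, 0.189% lower and 0.646% higher. The 95% interval left out 0 in 2 of the 15, Tubb4a and Tubb6, beside 14.3% of all probe sets. In 1 of the 15, Tubb4a again, all mice of a group lay beyond all mice of the other, as they did in 3.59% of the whole table. The choice of the family used this contrast, so nothing is read from these shares.

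Tubb4a was measured by 1 probe set, 1423221_at. Its log2 values were 10.82, 10.89, 10.94, 11.04 and 11.17 in the TPlp+AxL mice, against 11.31, 11.40, 11.44, 11.74 and 11.47 in the AxL mice. All 5 TPlp+AxL values lay below all 5 AxL values, and the gap between the closest mice, TPlp+AxL 5 and AxL 1, was smaller than the range within either group. The means were 10.97 ± 0.14 (SD, n = 5) in TPlp+AxL and 11.47 ± 0.16 (SD, n = 5) in AxL, a log2 change of -0.50 (SE 0.08, 95% interval -0.68 to -0.31). On the linear scale the TPlp+AxL level was 70.8% of the AxL level (95% interval 62.3% to 80.4%). In whole tissue, fewer cells of a type and less RNA per cell cannot be told apart, here and in all later values. With 1 mouse left out at a time the change ran from -0.55 to -0.43. It left the threshold without TPlp+AxL 3 (change -0.49), TPlp+AxL 4 (-0.51) or AxL 5 (-0.50).

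Tubb6 had a bright and a dim probe set that differed. The bright one, 1416431_at, read 9.50, 9.17, 9.25, 9.36 and 9.30 in the TPlp+AxL mice, against 8.84, 9.03, 9.03, 9.29 and 9.09 in the AxL mice. The groups overlapped through AxL 4, the highest AxL value, which lay above TPlp+AxL 2 and 3. The means were 9.32 ± 0.13 (SD, n = 5) in TPlp+AxL and 9.06 ± 0.16 (SD, n = 5) in AxL, a log2 change of 0.26 (SE 0.08, 95% interval 0.08 to 0.44), or 120% of the AxL level (95% interval 106% to 136%). The probe set was not called. The dim probe set, 1446353_at, stayed between 7.32 and 7.41 in all 10 mice and had a log2 change of 0.03 (95% interval -0.04 to 0.10).

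Tubb2b, the isotype linked to young and migrating neurons, was measured by 1 probe set, 1452679_at. It read 11.97, 11.72, 11.49, 11.58 and 11.76 in the TPlp+AxL mice, against 11.49, 11.68, 11.43, 11.74 and 11.58 in the AxL mice. TPlp+AxL 1 was the highest of all 10, and the other TPlp+AxL values lay within or just above the AxL range. The log2 change was 0.12 (SE 0.09, 95% interval -0.07 to 0.31). It was 0.05 without TPlp+AxL 1, and -0.00065 when TPlp+AxL 1, AxL 3 and AxL 5 were left out together. Those are the 3 arrays with the highest choroid plexus signal, described with the marker lists.

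The neuronal isotype Tubb3 was measured by 1 probe set, 1415978_at. It read 9.43, 9.08, 9.27, 9.34 and 9.48 in the TPlp+AxL mice, against 9.60, 9.24, 9.03, 9.82 and 9.59 in the AxL mice. The AxL mice spanned a wider range and enclosed every TPlp+AxL value. The means were 9.32 ± 0.16 (SD, n = 5) in TPlp+AxL and 9.46 ± 0.32 (SD, n = 5) in AxL, with a log2 change of -0.14 (95% interval -0.43 to 0.16). The interval leaves room for a level between 74.2% and 112% of AxL.

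Tubb2a was the isotype read by the brightest probe set of the family, 1427347_s_at, whose ending marks probes that can match more than 1 transcript. It read 13.69, 13.46, 13.36, 13.35 and 13.40 in the TPlp+AxL mice, against 13.59, 13.48, 13.48, 13.67 and 13.71 in the AxL mice. TPlp+AxL 1 read as high as the highest AxL mice, and the other TPlp+AxL mice read below all AxL mice. The log2 change was -0.13 (SE 0.07, 95% interval -0.29 to 0.02), and it was 0.02 after quantile and 0.01 after cyclic loess normalisation. The second probe set, 1427838_at, had a log2 change of 0.01 (95% interval -0.12 to 0.13), with 4 AxL mice between 9.07 and 9.16 and AxL 4 alone at 8.82.

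Tubb5, the isotype of proliferating and many other cells, had 2 probe sets. The brighter, 1416256_a_at, read 12.51, 12.20, 12.20, 12.12 and 12.27 in the TPlp+AxL mice, against 12.44, 12.23, 12.38, 12.77 and 12.50 in the AxL mice. TPlp+AxL 1 lay above 4 of the 5 AxL mice, so the groups overlapped. The log2 change was -0.21 (SE 0.10, 95% interval -0.42 to 0.0045), and -0.08 after quantile or cyclic loess normalisation. The other probe set, 1455719_at, had a log2 change of -0.04 (95% interval -0.27 to 0.20), which was 0.07 after quantile and 0.06 after cyclic loess normalisation.

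Tubb4b, a broadly expressed isotype that cilia also use, was measured by 6 probe sets of very unequal brightness. The brightest, 1423642_at, read 12.00, 11.54, 11.38, 11.41 and 11.73 in the TPlp+AxL mice, against 11.76, 11.47, 11.66, 12.16 and 11.96 in the AxL mice. AxL 4 and TPlp+AxL 1 were the highest values, 1 in each group, and the groups overlapped widely. The log2 change was -0.19 (SE 0.14, 95% interval -0.50 to 0.12), and -0.29 without TPlp+AxL 1. The other 5 probe sets had changes of -0.04 to 0.10, all with overlapping groups and with 95% intervals that included 0. Of these 5, 4 end in _x_at, which marks probes with partial matches to other transcripts, and 3 were dimmer than the median probe set of the array.

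**Figure D1:**
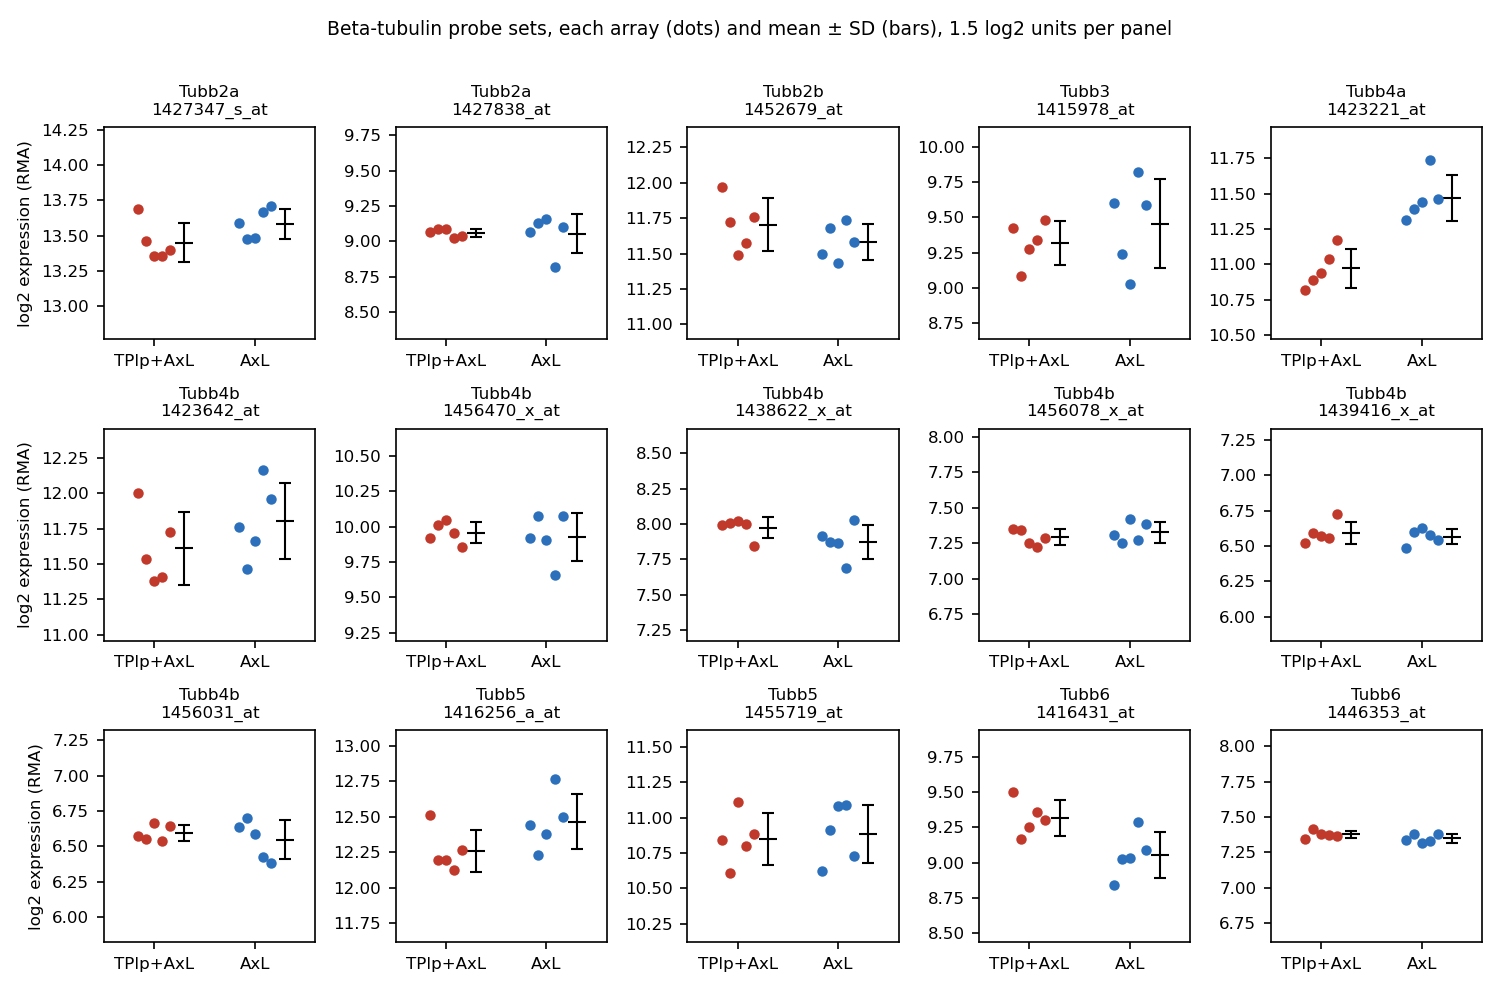
Log2 expression (RMA, vertical axis) of each of the 15 beta-tubulin probe sets in each mouse (dots), TPlp+AxL in red and AxL in blue, with the mean and SD of 5 mice beside them. All panels span 1.5 log2 units, so that the separation of the Tubb4a groups, 10.97 ± 0.14 in TPlp+AxL and 11.47 ± 0.16 in AxL, can be set against the overlap in the other panels.

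Signal level moved with the group difference in these arrays, so each member was also set against the probe sets of the same mean level. Across the whole table, probe sets with a mean of 7 to 8 had a median log2 change of 0.03, those of 9 to 10 had -0.06, those of 11 to 12 had -0.11 and those above 12 had -0.14. For each member the comparison took the 500 probe sets ranked next above and the 500 next below it in mean level, other members left out. Tubb2a is near the top of the range and had 632 such neighbours.

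Set against its neighbours, Tubb4a still had the largest difference, and Tubb2a, Tubb3, Tubb4b and Tubb5 lay nearer to the trend. The neighbours of Tubb4a had a median change of -0.11, and the change of Tubb4a was lower by 0.39 log2 units than that median (difference -0.39). Of its 1000 neighbours, 4 had a lower change, and 5 were called lower in limma. The bright Tubb6 probe set exceeded its neighbours' median of -0.05 by 0.31, with 983 of 1000 neighbours below it. Tubb2b exceeded its neighbours' median of -0.12 by 0.24, with 970 of 1000 below it, and by 0.12 when TPlp+AxL 1, AxL 3 and AxL 5 were left out. Tubb2a differed from its neighbours by 0.02, Tubb3 and Tubb4b by -0.07 each and the brighter Tubb5 probe set by -0.07. These small differences depended on single mice: with 1 array left out they ran from -0.04 to 0.05 for Tubb2a, -0.18 (without AxL 3) to -0.0086 (without AxL 4) for Tubb3, -0.15 (without TPlp+AxL 1) to 0.0017 (without AxL 4) for Tubb4b and -0.13 (without AxL 3) to -0.0067 (without AxL 4) for Tubb5. Tubb4a ran from -0.43 to -0.33 and Tubb6 from 0.26 to 0.35. The negative raw changes of Tubb2a, Tubb4b and Tubb5 were thus of the size seen in other probe sets as bright as they are. The 8 remaining probe sets differed from their neighbours by -0.06 to 0.11.

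**Figure D2:**
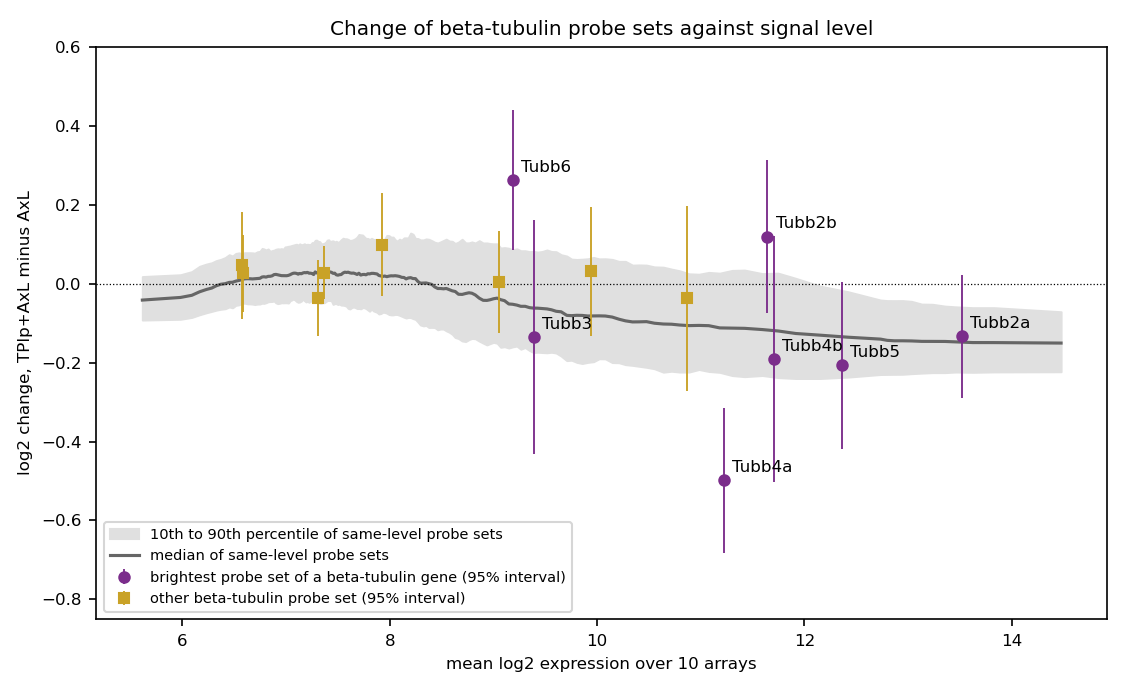
Log2 change (TPlp+AxL minus AxL, vertical axis) against mean log2 expression over 10 arrays (horizontal axis) for the 15 beta-tubulin probe sets with 95% intervals, on the running median and the 10th to 90th percentile band of all probe sets of the same level. Tubb4a (-0.50) lies below the band, Tubb6 (0.26) and Tubb2b (0.12) lie above it, and Tubb2a, Tubb3, Tubb4b and Tubb5 lie inside it.

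The same comparison was made mouse by mouse, by subtracting on each array the median of the neighbours. Tubb4a then read -0.45, -0.23, -0.22, -0.10 and -0.03 in the TPlp+AxL mice, against 0.06, 0.21, 0.10, 0.36 and 0.21 in the AxL mice. The bright Tubb6 probe set read 0.31, 0.07, 0.12, 0.20 and 0.08 in the TPlp+AxL mice, against -0.36, -0.09, -0.17, -0.03 and -0.11 in the AxL mice. On this scale the groups of both genes did not overlap, Tubb4a lower and Tubb6 higher in TPlp+AxL. So 2 of the 15 probe sets were apart, beside 3.49% of all probe sets treated in a similar way (1.5% lower and 1.99% higher). For the whole table, the running median did not leave out the probe set itself or the members. The choice of the family used this contrast, so nothing is read from these shares either. Tubb2b read 0.28, 0.17, -0.09, 0.03 and 0.14 in the TPlp+AxL mice, against -0.17, 0.06, -0.33, -0.04 and -0.10 in the AxL mice. Its groups overlapped.

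**Figure D3:**
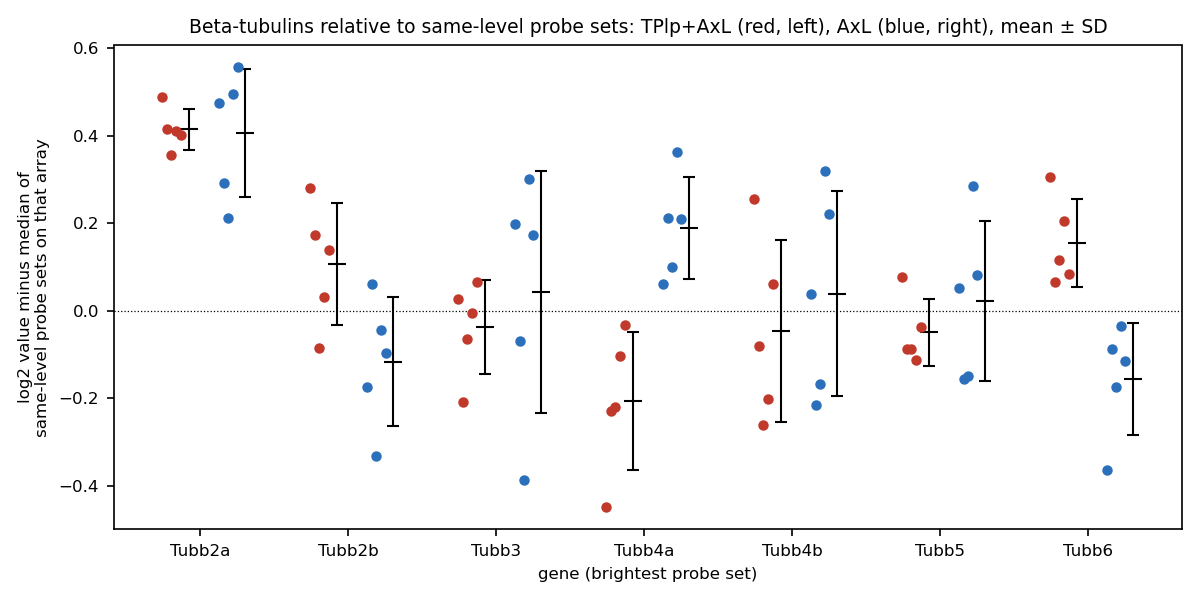
Log2 value minus the median of the same-level probe sets on the same array (vertical axis) for the brightest probe set of each gene, TPlp+AxL (red, left of each pair) and AxL (blue, right of each pair), 1 dot per mouse, with mean and SD of 5 mice. For Tubb4a every TPlp+AxL dot lies below 0 and every AxL dot above it, and for Tubb6 the reverse holds.

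How the isotypes vary from mouse to mouse within a group does not contain the difference between the groups. It was described by Pearson's r and Spearman's rho of the residuals from the group means over the 10 arrays, with no test, for the brightest probe set of each gene. Tubb4b and Tubb5 moved together most closely (r = 0.96, rho = 0.92), followed by Tubb2a with Tubb4b (r = 0.87, rho = 0.89) and Tubb2a with Tubb5 (r = 0.82, rho = 0.87). For each pair, the 2 farthest arrays are those where its alphabetically first gene lay farthest from its median residual. They can therefore differ between pairs. The 3 pairs above kept r values of 0.84 to 0.91 without the 2 farthest arrays. After the level of same-level probe sets was taken out on each array, r of these 3 pairs was 0.81 to 0.90. On that scale Tubb3 came as close, with r = 0.85 with Tubb2a (0.53 before) and 0.80 with Tubb5 (0.69 before). Tubb4a, the isotype with the separated groups, had an r of -0.11 with Tubb2a, 0.31 with Tubb4b and 0.32 with Tubb5, and of 0.35, -0.42 and -0.46 without the 2 farthest arrays. Tubb4a with Tubb6, the 2 isotypes that differed in opposite directions, had r = 0.50 and rho = 0.59, r = 0.21 without the 2 farthest arrays and r = 0.08 after the same-level medians were taken out. The correlation of Tubb5 with Tubb6 (r = 0.69) rested on the 2 arrays farthest for Tubb5, since it was -0.13 without them. Over all 21 pairs the median r was 0.60, against 0.35 after the same-level medians were taken out and 0.45 without the 2 farthest arrays. All pairs share the arrays and their scaling.

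Over the same residuals and 9089 candidate genes, the 3 genes most like each isotype were listed by Pearson's r, and these ranks are descriptions of 10 arrays. Each r is among the highest of 9089, so its height comes partly from the search. Same-level medians were not taken out here. Tubb4a was followed most closely by Cacng5 (r = 0.97), an auxiliary subunit of AMPA-type glutamate receptors, Zxdc (r = 0.97), a zinc finger protein, and Ino80 (r = 0.96), a chromatin remodelling ATPase. None of these 3 shared the group difference of Tubb4a: their log2 changes were 0.01, -0.07 and -0.03. Tubb2b was most like Clasp2 (r = 0.93), a protein of microtubule plus ends, then Ndn (r = 0.91) and Morf4l2 (r = 0.89). Tubb3 was most like Chpf (r = 0.96), Tnpo2 (r = 0.95) and Agk (r = 0.95). Tubb4b was most like the sodium leak channel subunit gene Unc80 (r = 0.99), Spcs2 (r = 0.99) and Txndc15 (r = 0.99). Tubb5 was most like the chaperone gene Dnaja2 (r = 0.99), Trpc1 (r = 0.99) and Eif4enif1 (r = 0.98). Tubb2a was most like Arf3 (r = 0.97), the calcineurin gene Ppp3ca (r = 0.97) and the noncoding RNA Norad (r = 0.97). Tubb6 was most like Erbin (r = 0.97), Tmem229a (r = 0.95) and Mettl9 (r = 0.94).

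The rest of the tubulin and cytoskeleton machinery was read from 8 lists, with each gene represented by its brightest probe set. Of 130 measured genes, 1 fell and 0 rose at the threshold (limma, adjusted over all 45037 probe sets), beside 1.26% of all 18193 genes called in either direction, 0.28% lower and 0.978% higher, and 47 of the 130 had an unadjusted p under 0.05, beside 17.9% of all genes. The median log2 change of the 130 was -0.12 with 111 negative, beside -0.03 and 62.7% negative over all genes. Bright probe sets as a class also had medians below 0, as given above. The gene that fell was Stmn4, a stathmin of neurons that binds tubulin dimers and promotes microtubule disassembly, with 12.00 ± 0.03 (SD, n = 5) in TPlp+AxL and 12.35 ± 0.13 (SD, n = 5) in AxL, a log2 change of -0.36 (SE 0.06, adjusted p = 0.0161). The call on Stmn4 was lost in 5 of 20 alternatives: after quantile (-0.22) or cyclic loess normalisation (-0.23), with a replicate block (-0.36), without TPlp+AxL 4 (-0.35), and without AxL 3, AxL 5 and TPlp+AxL 1 together (-0.33). Its adjusted p (limma) ran from 0.00953 to 0.296 over the 20.

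The partners of beta tubulin in the dimer, the alpha tubulins, had 4 of 8 listed genes measured, 0 called and a median of -0.06. The brain isotype Tuba1a read 13.62 ± 0.18 (SD, n = 5) in TPlp+AxL and 13.75 ± 0.09 (SD, n = 5) in AxL, with a log2 change of -0.13 (limma adjusted p = 0.48). Tuba4a, an isotype made with a C terminus that already lacks the final tyrosine, had a log2 change of -0.23 (limma adjusted p = 0.152). The folding chaperones and cofactors, which assemble the dimer, had 0 of 22 called and a median of -0.10. Among them Tbcd, a cofactor that acts on beta tubulin, had -0.09 (limma adjusted p = 0.299) and the chaperonin subunit Cct7 had -0.20 (limma adjusted p = 0.321). The gamma, delta and epsilon tubulins with the gamma tubulin ring complex, which nucleates microtubules, had 0 of 12 called and a median of -0.07. Their smallest p belonged to Tube1 (0.12, limma adjusted p = 0.24) and Tubgcp5 (-0.09, limma adjusted p = 0.454). The probe sets of Tuba1a, Tbcd and Tube1 end in _x_at, so they can also read other transcripts.

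Lists of proteins that bind, modify or travel on microtubules, or belong to the other filament systems, also had medians below 0, and Stmn4 was the called gene among them. The microtubule-associated and plus-end list had 0 of 29 called and a median of -0.15, led by Map6d1 (-0.22, limma adjusted p = 0.103), a relative of the stabiliser Map6, and the end-binding gene Mapre3 (-0.39, limma adjusted p = 0.115). The stathmin and severing list had 1 of 11 called and a median of -0.11. Tubulin-modifying enzymes had 0 of 18 called and a median of -0.09, with Ttll11 (-0.19, limma adjusted p = 0.188) and Tpgs1 (-0.23, limma adjusted p = 0.233), both of polyglutamylation, at the smallest p. Transport motors had 0 of 20 called and a median of -0.15, led by the dynein heavy chain Dync1h1 (-0.29, limma adjusted p = 0.0727) and the dynactin gene Dctn1 (-0.19, limma adjusted p = 0.0961). Neurofilaments and the actin cytoskeleton had 0 of 14 called, a median of -0.19 and all 14 negative, beside 62.7% of all genes. That share is not matched for level, and these genes had mean levels from 10.36 (Nefh) to 14.27 (Tmsb4x). Among all probe sets near a mean level of 12.15, the 90th percentile of the change was -0.0060, so most were negative there too. Nefl was at -0.22 (limma adjusted p = 0.146) and Nefm at -0.25 (limma adjusted p = 0.169). The log2 change of Tubb4a, -0.50, was below the lowest value of each of these lists, where the minimum was -0.40 among the microtubule-associated proteins.

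**Figure D4:**
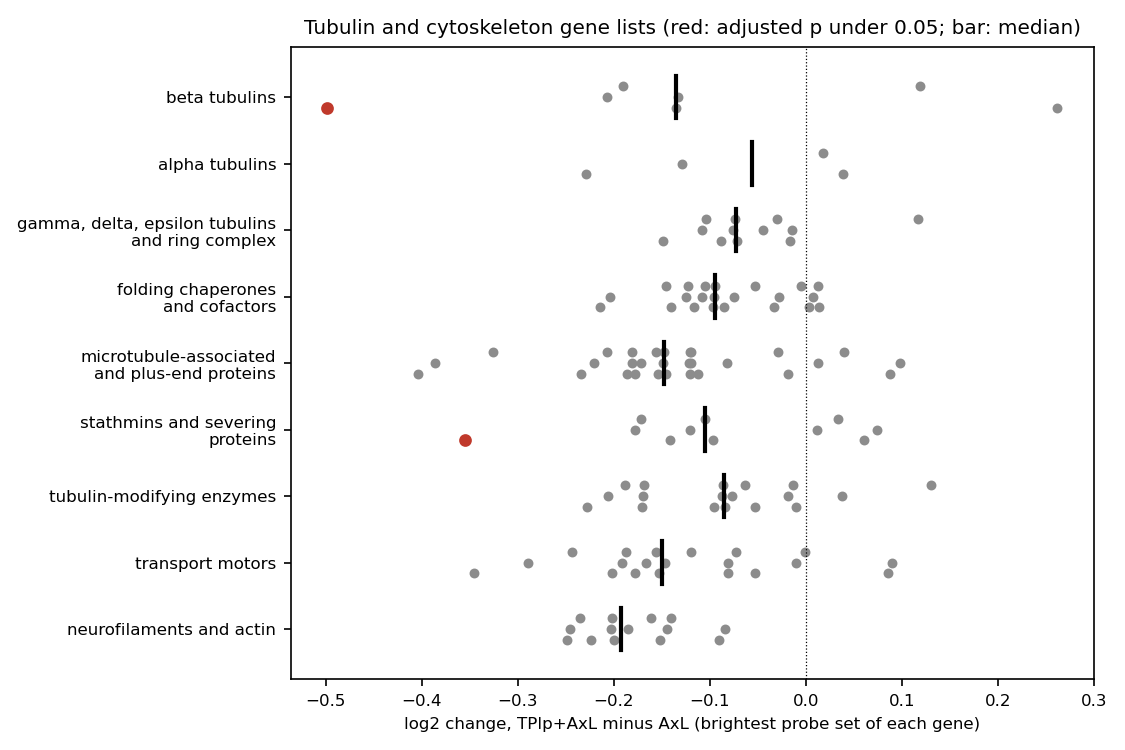
Log2 change (TPlp+AxL minus AxL, horizontal axis) of the brightest probe set of each measured gene in the beta tubulins and 8 cytoskeleton lists (rows), with list medians as bars and genes past an adjusted p of 0.05 in red. The red dots are Tubb4a (-0.50), the leftmost dot of the plot, and Stmn4 (-0.36).

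Markers of cells that make these isotypes were also read, and their part in the differences was not tested. The markers were not set against same-level probe sets. Many neuron and myelin markers are bright, and probe sets of 11 to 12 and above 12 had median changes of -0.11 and -0.14. Tubb4a is made by neurons and oligodendrocytes. Of 10 mature neuron markers, 2 fell, Nrgn (-0.27, limma adjusted p = 0.0078) and Syn1, beside 0.28% of all genes called lower. The median was -0.25 and all 10 were negative, beside 62.7% of all genes. Their summed linear signal ran from 59541 to 72241 in TPlp+AxL and from 71722 to 78090 in AxL. Of 9 measured myelin markers, 0 were called, all 9 were negative and the median was -0.21, with Mobp at -0.36 (limma adjusted p = 0.0752). Their sum ran from 37536 to 43197 in TPlp+AxL and from 41957 to 51910 in AxL. Oligodendrocyte precursor markers had 0 of 5 called and a median of -0.19, with Olig1 at -0.28 (limma adjusted p = 0.191). Array values have no true zero, so no marker can be given as absent.

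For the isotypes with higher values, immature neuron markers had 0 of 10 called and a median of -0.02, and cell cycle markers 0 of 9 and a median of -0.0048. Their smallest p belonged to Stmn1 (-0.18, limma adjusted p = 0.307) and Mcm5 (0.10, limma adjusted p = 0.551). Of 8 microglia and macrophage markers 1 rose, Lyz2 (0.90, limma adjusted p = 0.04), but 5 were negative and the median was -0.06. Of 6 measured T cell markers 2 rose, Cd3g (0.87, limma adjusted p = 0.0122) and Cd3d. Over all genes 0.978% were called higher and 0.28% lower. The T cell sum ran from 1656 to 1957 in TPlp+AxL and from 1407 to 1569 in AxL. The microglia and macrophage sum ran from 15579 to 18549 in TPlp+AxL and from 14499 to 17646 in AxL. Astrocyte markers had 0 of 7 called and a median of -0.03, and endothelial markers 0 of 7 and a median of -0.17. Gja1 (-0.17, limma adjusted p = 0.101) and Tek (-0.31, limma adjusted p = 0.0672) had the smallest p of these lists. Of the choroid plexus markers, Kl had the smallest p (-0.43, limma adjusted p = 0.572). The choroid plexus sum set 3 arrays apart, with 30094 in TPlp+AxL 1 and 35677 and 30749 in AxL 3 and AxL 5, beside 8773 to 10554 in the other 7. Without these 3 arrays Tubb4a had a log2 change of -0.47 and Tubb6 of 0.22, and neither was called, where 1 of all 45037 probe sets was. Of 8 hippocampal subfield markers 1 fell, Nnat (-0.49, limma adjusted p = 0.045), 7 were negative and the median was -0.10. Their sum ran from 7487 to 8351 in TPlp+AxL and from 8716 to 10173 in AxL, without overlap. Nnat is the brightest of the 8 and weighs most in this sum. No share over all genes can be set beside such sums.

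The direction of Tubb4a and of the bright Tubb6 probe set was the same under every alternative tried. Tubb4a ran from -0.55 to -0.39 and Tubb6 from 0.21 to 0.32 over 21 alternatives each. Only other scalings, array weights and left-out arrays could move these values. The variance model, the probe set filters, the replicate block and the threshold leave the difference of means unchanged and bear on the call alone. Tubb2b ran from -0.00065 to 0.23, Tubb3 from -0.26 to -0.04, Tubb4b from -0.29 to -0.08, Tubb5 from -0.29 to -0.08 and Tubb2a from -0.19 to 0.02.

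**Figure D5:**
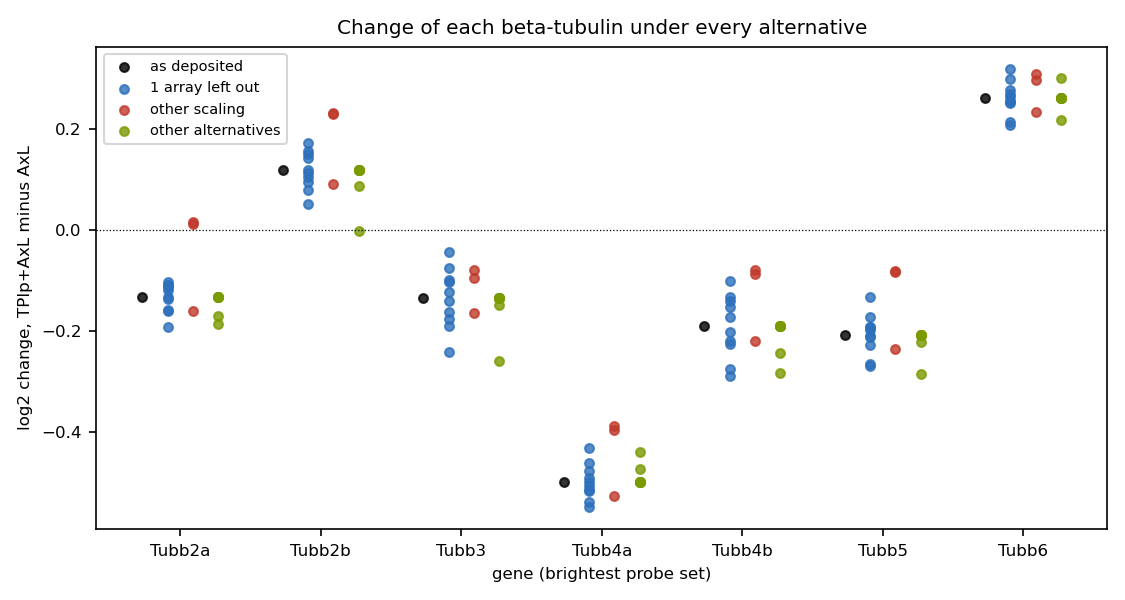
Log2 change (TPlp+AxL minus AxL, vertical axis) of the brightest probe set of each isotype, as deposited (black), with 1 array left out (blue), under another scaling (red) and under the other alternatives (green). Tubb4a stays between -0.55 and -0.39 and Tubb6 between 0.21 and 0.32, while Tubb2a and Tubb2b reach 0.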

How the data were processed

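Total RNA of whole hippocampi was labelled and hybridised to Affymetrix arrays, 1 per mouse, per the labels' protocols. The authors deposited a log2 value for each of 45101 probe sets, computed by RMA according to the submitters' processing notes, with no software version named in the sources used here. RMA normalises between arrays and shrinks low signals towards each other, which can understate the change of dim probe sets. Array medians here ran from 7.903 to 7.920 in TPlp+AxL and from 7.875 to 7.900 in AxL, without overlap. The SD over the probe sets of an array ran from 1.47 to 1.54 in TPlp+AxL and from 1.50 to 1.59 in AxL. The arrays thus still differed in level and spread. The 64 control probe sets were left out. Groups came from the sample descriptions, and whether mice shared cages or batches is not given, so the spread is that between these mice. The number of arrays limits the precision.

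TPlp+AxL minus AxL was fitted by limma 3.58.1 (lmFit, eBayes) in R 4.3.3 on all 45037 probe sets, adjusted by Benjamini-Hochberg at 0.05, and the fit was checked on simulated data. Symbols were updated to GRCm38.p6 for 34754 of 34945 probe sets with 1 symbol. 5 further probe sets, of Tubb1, of the pseudogene Tubb2a-ps2 or of Tubb2b with that pseudogene, fell outside the rule. A gene in a list was represented by its brightest probe set. Each cytoskeleton list is represented in the text by its called genes (at most 4, by size of change) or else by its 2 lowest p-values, and each marker list by its lowest. Syn1 and Cd3d were named after their values were seen. The probe sets of Tuba1a, Tube1, Tbcd, Gja1 and Mcm5 end in _x_at, and those of Dctn1 and Stmn1 in _s_at. The members, lists and rules were chosen with earlier results of these data known. Alternatives were a trended and robust variance, a filter on dim probe sets, median centring, quantile and cyclic loess normalisation, weighted arrays, a single probe set for each gene, removal of probe sets with shared sequence, a replicate block, each array left out, 3 arrays left out and a threshold of 0.10. Subtracting same-level medians on each array, and the same-level comparison without 3 arrays, were added after the data were seen.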

Additional observations from a re-analysis of the deposited data

Results flagged for a closer look

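Some mice stood apart from the rest of their group, with a gap to the nearest mouse that took up more of the group's whole range than Dixon's 95% critical value for 5 values allows. Of 82 groups checked, the 2 groups of 41 named probe sets, 7 met it, and chance alone gives about 1 in 20. Among the beta tubulins these were the dimmer Tubb2a probe set 1427838_at at 8.82 in AxL 4, where the other AxL mice lay at 9.07 to 9.16, and the Tubb4b probe set 1438622_x_at at 7.84 in TPlp+AxL 5, where the others lay at 7.995 to 8.02. Among the other cytoskeleton genes, Tuba1a stood at 13.91 in AxL 5 (others 13.69 to 13.72), Tbcd at 10.66 in TPlp+AxL 4 (others 10.75 to 10.79), Ttll11 at 9.66 in TPlp+AxL 1 (others 9.74 to 9.75) and Tpgs1 at 9.18 in TPlp+AxL 4 (others 9.34 to 9.39). The choroid plexus marker Kl stood at 8.72 in TPlp+AxL 1 (others 7.80 to 7.99).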

How the results depend on the processing

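No result changed direction where it was called. Tubb4a stayed lower throughout, but beta-tubulin probe sets called lower, 1 as reported, numbered 0 without TPlp+AxL 3, TPlp+AxL 4 or AxL 5 and 0 without AxL 3, AxL 5 and TPlp+AxL 1 together, so from 0 to 1 with 1 array left out. Over all probe sets, 291 were higher and 85 lower. With 1 array left out the counts ran from 159 (without TPlp+AxL 4) to 387 (without TPlp+AxL 2) higher and from 26 (without TPlp+AxL 4) to 187 (without AxL 2) lower. Without the 3 arrays together they were 1 higher and 0 lower, with array weights 465 and 288, and at an adjusted p under 0.10 they were 490 and 267. Centred array medians gave 210 lower and 269 higher, quantile normalisation 66 and 340, and cyclic loess 43 and 348. Cytoskeleton genes called lower, 1 as reported, numbered 2 with centred medians, 0 after quantile or cyclic loess normalisation, 4 with array weights, 0 without the 3 arrays, 3 at 0.10 and 0 (without TPlp+AxL 4) to 2 with 1 array left out.

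The replicate numbers share only a number: same-numbered arrays had residual correlations of -0.14, 0.05, 0.31, -0.31 and 0.04. With the replicate block 38 probe sets were lower over the whole table, 1 of the beta tubulins and 0 of the cytoskeleton genes. With 5 mice a group, the intervals of Tubb3 and Tubb4b span differences larger than their own estimates. The causes were not tested.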
